A study of Mus musculus with 17 samples.

Results

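The Vmn1r genes encode the vomeronasal type 1 receptors of the mouse, and they were examined here in ATAC-seq summits from kidney. A gene was taken as a member when the GENCODE annotation of mm10 calls it protein-coding and its symbol starts with Vmn1r, which gave 209 gene entries with 208 symbols (Vmn1r216 has 2 gene identifiers) among 21938 protein-coding genes on 21 chromosomes. The family was selected on the presence, rank and genomic clustering of summits within it by group, so these measures are described below and no test of them is used as support. A test across all protein-coding genes is given as background, and where it counts a member, the count restates the presence that chose the family. A summit was assigned to a gene when it lay between 2 kb upstream of the gene and its end.

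The libraries came from whole kidneys of 17 male mice, 1 library per mouse, with 20000 cells each. The control group (Ctrl, labelled WT) held 5 C57BL/6 mice. The 6 diabetic mice (Case) were db/db, of the line BKS.Cg-Dock7m +/+ Leprdb/J, which lacks a working leptin receptor and becomes obese and diabetic. The treated group (Dapa) consisted of 6 mice of the same line that received dapagliflozin by oral gavage for 6 weeks, at 1 mg/kg/day, while Ctrl and Case received saline. Dapagliflozin blocks SGLT2, through which the kidney reabsorbs glucose. All mice were 8 weeks old when bought. The mm10 reference sequence is that of C57BL/6J, and the controls are of another strain than the db/db mice, so the db/db genotype, diabetes and the genetic background cannot be told apart in any comparison with Ctrl.

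Type 1 vomeronasal receptors are G protein-coupled receptors of sensory neurons in the vomeronasal organ, where they detect pheromones and other chemical cues. Each of these neurons expresses a single receptor gene, coupled to the G protein subunit encoded by Gnai2 and to the cation channel encoded by Trpc2. The genes lie in tandem arrays that arose by duplication, and many have close copies and pseudogenes nearby. The kidney is not known as a site of Vmn1r expression. ATAC-seq marks DNA that the transposase can reach, and a summit is the point of highest signal in a peak, so a summit in a receptor gene measures accessible or over-represented sequence and not transcription.

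The deposited lists held 37402 to 56659 summits per Ctrl mouse, 29702 to 51292 per Case mouse and 32846 to 49442 per Dapa mouse, and read depth is unknown. All complete lists ended at nearly the same score, 2.00 to 2.05, and differed in how many summits lay above it. Each mouse was therefore examined in its complete list and in an equal-length list, the 29702 summits of highest score, as many as the shortest list holds. The equal-length list kept 52.4% to 79.4% of each Ctrl list, 57.9% to 100% of each Case list and 60.1% to 90.4% of each Dapa list, and its lowest score was on average 4.72 ± 0.687 (SD, n = 5) in Ctrl, 3.38 ± 1.18 (n = 6) in Case and 3.92 ± 0.574 (n = 6) in Dapa, so that the equal-length lists have a higher floor in Ctrl than in Case. Of 20 kidney epithelial marker genes, between 9 and 15 carried a summit at most 1 kb from a start in each mouse (medians of 12 in Ctrl, 12.5 in Case and 12 in Dapa). Of 10 leukocyte markers, the medians were 0, 0.5 and 1, with a highest value of 4 in a Case mouse.

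Most Vmn1r genes had no summit. In the equal-length lists 34 of 209 (16.3%) had one in at least 1 mouse, and 19 of these 34 had it in a single mouse. A further 7 genes had a summit in 2 mice and 6 genes in 3 to 8 mice, whereas Vmn1r79 had one in 9 mice and Vmn1r4 in all 17. The complete lists gave 77 genes (36.8%), of which 39 were found in 1 mouse and 22 in 2 mice. A summit within 1 kb of an annotated start was seen in 17 genes in the equal-length lists and in 42 genes in the complete lists.

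**Figure D1:**
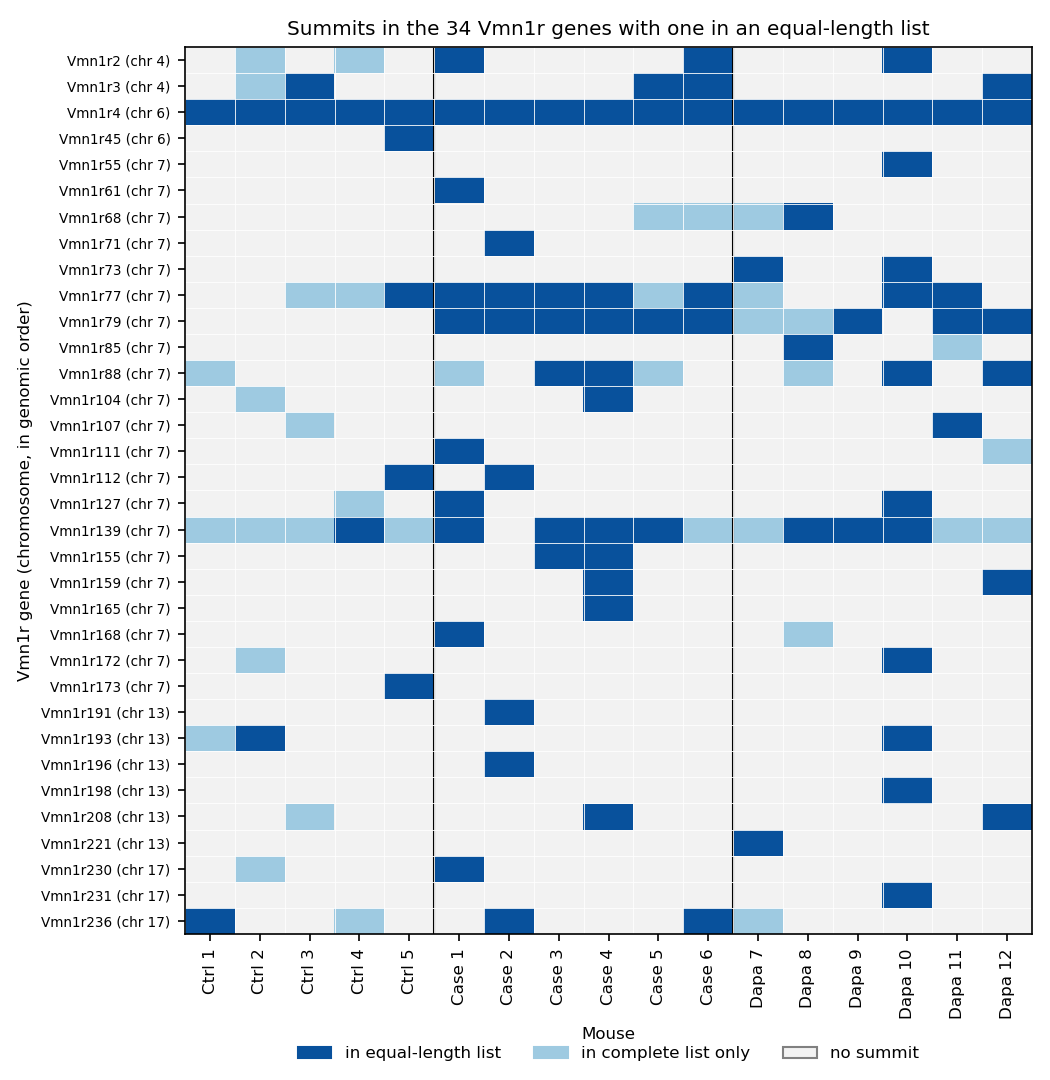
Rows are the 34 Vmn1r genes with a summit in at least 1 equal-length list, in genomic order, and columns are the 17 mice, with black lines between Ctrl, Case and Dapa, dark cells for a summit in the equal-length list and light cells for one in the complete list only. Vmn1r4 is filled in every mouse, Vmn1r79 is empty in all 5 Ctrl mice, and 19 rows have a dark cell in 1 mouse.

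The number of members with a summit in the equal-length lists was higher in Case than in Ctrl, with overlap between the groups. It was 2, 2, 2, 2 and 5 of 209 in Ctrl 1 to 5, a mean of 2.60 ± 1.34 (SD, n = 5). In Case mice it ranged from 4 to 10 with a median of 7, a mean of 7.33 ± 2.42 (n = 6). In Dapa mice it ranged from 3 to 12 with a median of 4, a mean of 5.33 ± 3.44 (n = 6). Ctrl 5 lay above the lowest Case mouse, Case 5. The Dapa range spanned that of Case, whereas Ctrl 1 to 4, at 2 each, lay below every Dapa mouse. The highest Dapa value came from Dapa 10, without which the Dapa mean was 4. Leaving out Vmn1r4 and Vmn1r79, which recur most, the means were 1.60 in Ctrl, 5.33 in Case and 3.83 in Dapa.

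This order was not seen in the complete lists, where the means were 11.2 ± 3.90 in Ctrl, 10.8 ± 4.22 in Case and 11.5 ± 4.59 in Dapa. Ctrl mice had 13, 17, 10, 9 and 7 members with a summit, Case mice 6 to 18 with a median of 10 and Dapa mice 4 to 18 with a median of 12. The Case minus Ctrl difference was therefore 4.73 members in the equal-length lists and -0.367 in the complete lists. Taking instead the upper 50% of each list by rank, a choice made after seeing the data, gave 3.17 members in Case, 1.80 in Ctrl and 1.33 in Dapa, so that Dapa was then below Ctrl. The share of a list that the equal-length list keeps differed between the mice. Case 2, Case 3 and Case 4, with 95.3%, 99.5% and 100% of their lists kept, had 8, 6 and 10 members in both kinds of list, whereas Ctrl 2, with 52.4% kept, had 17 in the complete and 2 in the equal-length list. The counts did not follow this share in every mouse, since Dapa 9 kept 90.4% and had 3 members, Case 1 kept 68.3% and had 10, and Ctrl 4 kept 69.4% and had 2. The part of list length in the difference was not tested.

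**Figure D2:**
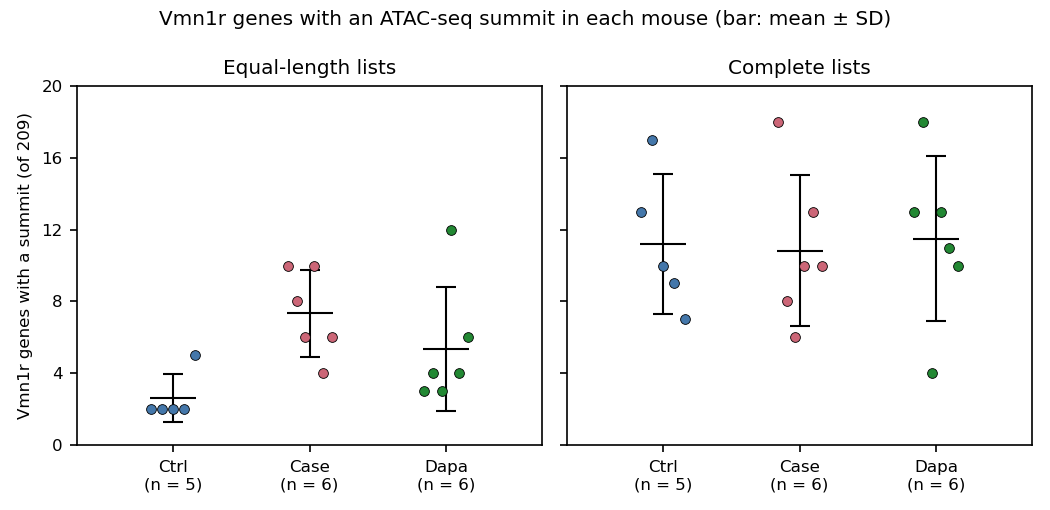
Each point is 1 mouse and the vertical axis is the number of Vmn1r genes with a summit, of 209, in the equal-length lists (left) and the complete lists (right), with the mean and SD of each group. The group means are 2.60, 7.33 and 5.33 on the left and 11.2, 10.8 and 11.5 on the right.

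Vmn2r and Olfr genes, of other chemosensory families, showed the same order of group means in the equal-length lists. Vmn2r genes, which encode the type 2 vomeronasal receptors, had a summit in 3.61% ± 2.50 of 122 genes per Ctrl mouse, 8.33% ± 4.25 per Case mouse and 6.56% ± 3.71 per Dapa mouse. Olfr genes, the olfactory receptors, had one in 1.04% ± 0.307, 1.81% ± 0.554 and 1.75% ± 0.605 of 1135 genes. The corresponding values for Vmn1r were 1.24% ± 0.641, 3.51% ± 1.16 and 2.55% ± 1.65. Tas2r genes, the bitter taste receptors, had 1.71% ± 2.55, 1.91% ± 1.48 and 1.91% ± 2.33 of 35 genes. All other protein-coding genes went the other way, at 63.0% ± 0.385 in Ctrl, 60.6% ± 1.15 in Case and 61.4% ± 1.47 in Dapa. In the complete lists the Vmn1r shares were 5.36%, 5.18% and 5.50%, the Vmn2r shares 12.3%, 12.7% and 14.5%, and the Olfr shares 3.51%, 3.34% and 3.66%.

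Windows differ in length between families, so summits were also counted per megabase of window. Over the 17 mice the equal-length lists held 3.13 ± 1.53 summits per Mb in the 1.95 Mb of Vmn1r windows. The values were 2.17 ± 1.39 for Vmn2r, 1.90 ± 0.676 for Olfr, 6.37 ± 6.91 for Tas2r, whose windows cover 0.102 Mb in all, and 19.1 ± 0.699 for the other protein-coding genes. Within the family, the longest windows held a summit most often. Of the 52 members with the longest windows (12134 to 53088 bp), 28.8% had a summit in an equal-length list, against 15.1% of the 53 with the shortest (2888 to 2966 bp), with 5.77% and 15.4% in the 2 sets of 52 between them in length.

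**Figure D3:**
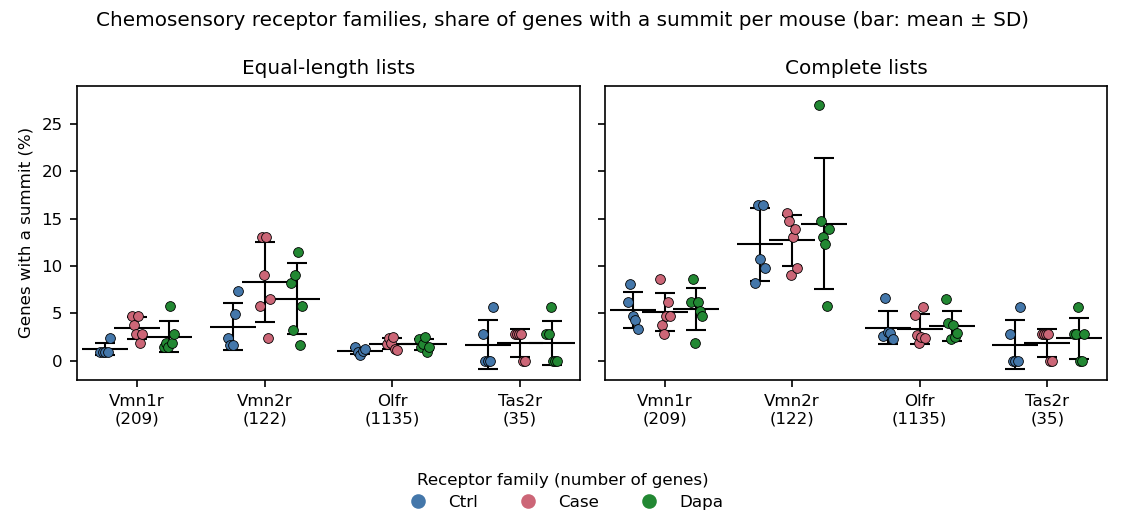
Points are mice, bars are the mean and SD of a group, and the vertical axis is the percentage of a family's genes with a summit, for the equal-length lists (left) and the complete lists (right). Vmn1r, Vmn2r and Olfr means are lowest in Ctrl on the left, and on the right the Vmn1r means lie between 5.18% and 5.50%.

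Vmn1r4 (ENSMUSG00000071893.7, chr6:56924015-56958100, plus strand) was the member with a summit in every mouse, and that summit lay beside the start of a second gene. All 17 summits fell within 76 bp, at chr6:56923911-56923986, between 29 and 104 bp upstream of the annotated start of Vmn1r4. The start of Nt5c3, which encodes a cytosolic 5′-nucleotidase and is transcribed from the minus strand, lies 12 bp from the highest of these summits. The 82 bases between the 2 annotated starts, chr6:56923933-56924014, are shown because they carry the one recurrent strong summit of the family. The capitals mark the stretch chr6:56923936-56923986 that holds 13 of the 17 summits, and the interval has a GC content of 69.5% and 9 CpG dinucleotides (mm10, RefSeq sequence, plus strand).
Vmn1r4 and Nt5c3 interval: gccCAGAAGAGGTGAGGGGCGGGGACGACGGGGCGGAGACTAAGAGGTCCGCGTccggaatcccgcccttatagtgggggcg

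The rank percentile of this summit, where 100 is the highest score of a mouse's list, was 98.28, 98.28, 87.14, 99.28 and 96.99 in Ctrl 1 to 5. In Case it ranged from 87.37 to 97.48 with a median of 94.53, and in Dapa from 88.80 to 98.68 with a median of 96.68. The groups overlapped, with means of 96.0 ± 5.02, 93.9 ± 3.54 and 95.9 ± 3.63. Its rank ran from 309 in Ctrl 4 to 6091 in Ctrl 3.

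Inside Vmn1r4 there were 4 further sites in the complete lists. Of these, 2 were each found in 1 mouse, in introns, in Dapa 8 at a percentile of 14.96 and in Ctrl 2 at 26.96, and neither summit was in the equal-length list. The other 2 were found in 4 Ctrl mice and in no db/db mouse. One lay in an intron, 8.2 kb into the gene, at chr6:56931913-56932251, with a summit in Ctrl 1, Ctrl 2, Ctrl 3 and Ctrl 5 at percentiles of 49.71, 55.69, 73.06 and 48.98. The other lay in the coding exon at chr6:56956578-56956735, in the same 4 mice at percentiles of 42.06, 70.13, 66.74 and 22.08. None of the 6 Case or 6 Dapa mice had a summit at either of these sites in the complete or the equal-length list, and Ctrl 4 had none. Counted over the gene body alone, Vmn1r4 was thus found in 4 Ctrl mice and in no db/db mouse in the equal-length lists, although its upstream summit was present in all. Over merged regions of the whole genome, 341 of 40041 regions seen in enough mice to be tested (0.852%) were found in at least 4 Ctrl mice and in no db/db mouse in the complete lists, and 269 of 27288 (0.986%) in the equal-length lists. Nothing is read from these shares, since the members were chosen with such patterns known.

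Neither of the sites found in 4 Ctrl mice had a second copy in mm10 at 95% identity or more. Their sequences are given as the stretches where summits were seen in Ctrl mice alone. For the intron, chr6:56932127-56932327 is shown with the stretch of the Ctrl 1, Ctrl 3 and Ctrl 5 summits in capitals. For the coding exon, chr6:56956568-56956745 is shown with the stretch of all 4 summits in capitals (mm10, plus strand).
Vmn1r4 intron: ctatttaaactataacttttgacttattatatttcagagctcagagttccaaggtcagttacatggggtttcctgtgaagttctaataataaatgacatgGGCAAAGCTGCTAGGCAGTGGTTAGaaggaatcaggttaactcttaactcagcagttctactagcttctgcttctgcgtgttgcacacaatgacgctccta
Vmn1r4 coding exon: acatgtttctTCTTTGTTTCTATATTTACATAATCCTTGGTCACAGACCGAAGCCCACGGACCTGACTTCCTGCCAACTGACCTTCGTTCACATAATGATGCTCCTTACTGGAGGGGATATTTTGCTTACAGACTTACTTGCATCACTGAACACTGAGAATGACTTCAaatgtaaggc

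Vmn1r79 (ENSMUSG00000096735.3, chr7:12171279-12181533, plus strand) had the opposite distribution. No Ctrl mouse had a summit in the gene in either kind of list. All 6 Case mice had one in both, and among the 6 Dapa mice it was found in 3 equal-length and 5 complete lists. The 11 mice shared 1 site, chr7:12178395-12178751, which GENCODE places in an untranslated part of an exon, about 7.1 to 7.5 kb from the gene's start. Its percentile in Case mice ranged from 37.86 to 63.87 with a median of 52.17. In Dapa mice it was 27.65 in Dapa 7, 10.89 in Dapa 8, 44.7 in Dapa 9, 37.77 in Dapa 11 and 46.92 in Dapa 12. Dapa 10 had no summit in the gene. The means were 52.0 ± 11.0 (n = 6) in Case and 33.6 ± 14.7 (n = 5) in the Dapa mice with a summit, and the ranges overlapped.

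The separation of Vmn1r79 between Case and Ctrl is the pattern the family was selected on. In the whole table of protein-coding genes, Fisher's exact test (2-sided) on mice with and without a summit in the equal-length lists gave an unadjusted p under 0.05 in the direction higher in Case for 19 of 2064 testable genes (0.921%), and in the direction lower in Case for 150 (7.27%). By its presence Vmn1r79 is counted among the 19, of 3 members seen in enough mice. No gene passed the Benjamini-Hochberg adjustment, the smallest adjusted p being 0.149. Over merged regions, 3 of 15502 testable regions (0.0194%) were present in every Case and no Ctrl mouse in the complete lists, and 5 of 11358 (0.0440%) in the equal-length lists, the Vmn1r79 site included in both. These shares are given as background and nothing is read from them.

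The Vmn1r79 site has near-identical copies. In mm10 there were 4 other matches of 96.1% to 100% identity to the 201 bases around its highest summit, of which 2 were identical over their aligned length, both on chromosome 4. These are chr4:3174191-3174391 beyond the end of Vmn1r2, and chr4:3183004-3183189, 186 bases, beyond the end of Vmn1r3. A read wholly inside an identical stretch cannot be assigned to 1 copy by its own sequence. Sequence beyond these stretches was not compared. Here and below, a summit was counted at a copy when it lay within it or at most 150 bases to either side. In the complete lists a summit was found at 1 of the 4 copies, that near Vmn1r2, in Ctrl 2. At the matching positions no db/db mouse had a summit at any copy. How the reads were divided between copies was not tested.

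**Figure D4:**
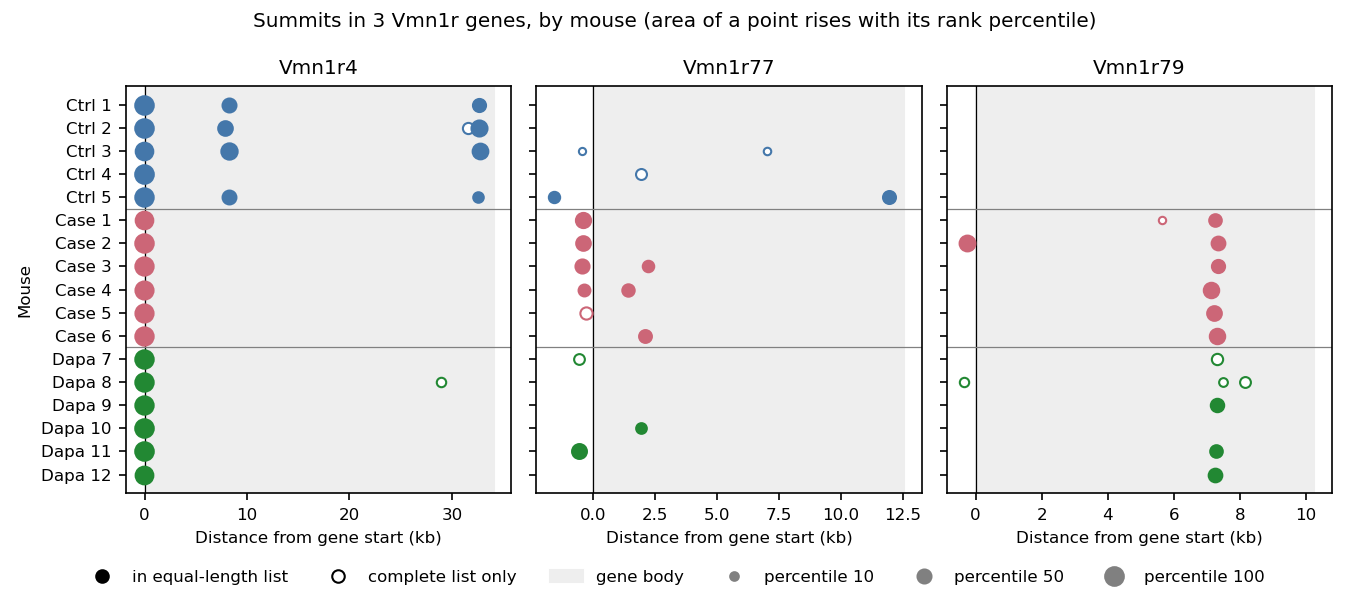
The horizontal axis is the distance of each summit from the gene's start in kb and each row is a mouse, for Vmn1r4, Vmn1r77 and Vmn1r79. Points are filled when the summit is in the equal-length list and open when it is in the complete list only, with an area that rises with the rank percentile. Vmn1r4 has a point at its start in 17 mice and 2 further columns in 4 Ctrl mice, and Vmn1r79 has a column of points in 6 Case and 5 Dapa mice.

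Vmn1r77 (ENSMUSG00000095864.2, chr7:12036752-12049295, plus strand), a neighbour of Vmn1r79 on chromosome 7, was found in 1 Ctrl, 5 Case and 2 Dapa mice by the equal-length lists and in 3, 6 and 3 by the complete lists. Its most recurrent site lay upstream of the start at chr7:12036154-12036444. There Ctrl 3 had a percentile of 2.83 and Case 1 to 5 had 61.39, 55.74, 50.83, 31.85 and 34.92. Dapa 7 had 23.78 and Dapa 11 had 58.56. The single Ctrl value was below all 7 db/db values. A second site, in an intron, chr7:12038669-12038970, was seen in Ctrl 4, Case 3, Case 6 and Dapa 10 at percentiles of 25.28, 28.94, 39.74 and 23.11.

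All of the upstream site is soft-masked as repeat in mm10, and 3 other places match it at 97.5% to 98.0% identity. Its 201 bases around the highest summit, chr7:12036218-12036418, are set beside the copy in the pseudogene Vmn1r-ps6, chr6:3113292-3113492 (read on the minus strand), to show how little separates them. Capitals mark the 4 bases that differ.
Vmn1r77 upstream: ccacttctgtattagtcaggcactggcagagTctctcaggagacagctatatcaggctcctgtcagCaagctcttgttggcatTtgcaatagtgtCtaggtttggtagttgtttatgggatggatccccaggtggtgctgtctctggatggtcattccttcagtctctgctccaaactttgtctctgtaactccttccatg
Vmn1r-ps6 copy: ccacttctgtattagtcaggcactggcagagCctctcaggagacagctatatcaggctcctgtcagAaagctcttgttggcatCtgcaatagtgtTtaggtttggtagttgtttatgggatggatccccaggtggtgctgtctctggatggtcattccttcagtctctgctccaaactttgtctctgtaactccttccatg

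The Vmn1r-ps6 copy had a summit in Ctrl 5, Case 1 and Dapa 12 in the complete lists. Case 1 therefore had a summit at both places.

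Vmn1r139 (ENSMUSG00000074311.3, chr7:22069057-22097907, plus strand) was found in 16 of 17 mice in the complete lists, all but Case 2, and by the equal-length lists in 1 Ctrl, 4 Case and 3 Dapa mice. Unlike those of Vmn1r4 and Vmn1r79, its summits were scattered over its window of 30851 bp. The site shared by most mice, chr7:22091498-22091613, was present in Ctrl 1, Ctrl 5, Case 1, Case 5 and Dapa 12 at percentiles of 19.69, 8.15, 33.3, 54.51 and 2.61. This site has 24 other copies of 98.5% to 100% identity on chromosome 7, and each of the 24 had a summit in at least 1 mouse in the complete lists. A further intronic site, chr7:22093504-22093861, seen in Case 6, Dapa 7, Dapa 8 and Dapa 9, has 20 copies, of which 17 had a summit in some mouse.

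The 2 members on chromosome 4, Vmn1r2 and Vmn1r3, each had a summit in 5 mice in the complete lists, 2 Ctrl, 2 Case and 1 Dapa. For Vmn1r2 they lay upstream of the start (chr4:3166531-3167067), in Ctrl 2, Ctrl 4, Case 1, Case 6 and Dapa 10 at highest percentiles of 10.13, 22.03, 46.07, 39.94 and 27.37. The Case and Dapa values were in the equal-length lists and the Ctrl values were not. The 201 bases chr4:3166967-3167167 have 5 other copies of 98.5% to 99.5% identity, of which 3 had a summit in the complete lists. The copy at chr5:3005949-3006149 (99.5%) had one in Ctrl 4, Case 4, Dapa 7 and Dapa 10, and that at chr4:3190270-3190469 (99.5%) in Ctrl 4, so that Ctrl 4 and Dapa 10 had summits both at Vmn1r2 and at a copy. The copy at chr7:12171018-12171218 (98.5%), upstream of Vmn1r79, had one in Case 2 and, just outside the stretch at chr7:12170939, in Dapa 8. It is shown beside the Vmn1r2 stretch because both lie upstream of a member. Capitals mark the 3 bases that differ (plus strand of both).
Vmn1r2 upstream: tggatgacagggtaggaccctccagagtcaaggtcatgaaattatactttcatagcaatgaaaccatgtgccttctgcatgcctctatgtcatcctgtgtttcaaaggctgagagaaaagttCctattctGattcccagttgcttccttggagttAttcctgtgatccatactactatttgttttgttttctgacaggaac
Vmn1r79 upstream: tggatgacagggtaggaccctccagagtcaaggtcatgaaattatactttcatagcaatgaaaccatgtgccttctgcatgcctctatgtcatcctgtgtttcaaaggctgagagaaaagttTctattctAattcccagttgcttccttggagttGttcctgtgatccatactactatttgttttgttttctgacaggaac

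For Vmn1r3 (chr4:3184348-3185358, minus strand) the summits lay in the coding exon, at chr4:3184608-3184772. Ctrl 2, Ctrl 3, Case 5, Case 6 and Dapa 12 had percentiles of 9.43, 57.19, 71.75, 29.74 and 38.18, and 71.75 in Case 5 was the highest of any member summit outside Vmn1r4. The 201 bases around that summit, chr4:3184554-3184754, are identical to chr7:12176744-12176944 in the coding exon of Vmn1r79. The sequence is printed once, on the coding strand, as a stretch by which 2 members cannot be told apart. Sequence to either side of it was not compared.
Vmn1r3 and Vmn1r79 coding exon: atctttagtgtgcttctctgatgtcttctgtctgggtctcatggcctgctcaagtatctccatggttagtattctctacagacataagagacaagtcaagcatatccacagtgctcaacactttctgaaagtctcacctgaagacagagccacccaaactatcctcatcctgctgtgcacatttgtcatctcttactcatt

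At the Vmn1r79 end of this identical stretch Case 1 had a summit in the complete list, at a percentile of 3.56. An identical stretch also lies in V1rg10 on chromosome 5, where Ctrl 3, Case 5, Case 6, Dapa 9, Dapa 10 and Dapa 12 had a summit. Ctrl 3, Case 5, Case 6 and Dapa 12 thus had one both there and in Vmn1r3.

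Other members were found in 8 mice or fewer. Vmn1r88 had summits in 8 mice in the complete lists and 4 in the equal-length lists (0 Ctrl, 2 Case and 2 Dapa), at 8 places in its window of 28297 bp, of which 1 was shared by 2 mice, Case 4 and Dapa 8. Vmn1r236 had summits upstream of its start or just inside the gene in Ctrl 1, Ctrl 4, Case 2, Case 6 and Dapa 7, and 3 of these mice had them in the equal-length list. Vmn1r155 had a summit in Case 3 and Case 4 and in no other mouse, at percentiles of 58.15 and 31.95. Vmn1r73 had one in Dapa 7 and Dapa 10, at 40.65 and 47.57. In the equal-length lists 10 members were seen in Case mice alone, 9 in Dapa mice alone, 6 in Case and Dapa but not Ctrl, 2 in Ctrl alone and 4 in all 3 groups. Among all 17433 protein-coding genes with a summit in any equal-length list, the shares were 5.19% in Case alone, 3.99% in Dapa alone, 5.01% in Case and Dapa but not Ctrl and 2.25% in Ctrl alone. In the complete lists the counts of members were 14, 19, 7, 16 and 11 of 77, beside 2.64%, 3.51%, 3.22% and 2.82% of 18744 genes for the first 4 of these classes. A member found in 1 mouse is found in 1 group by necessity, and members recur less than most genes. Of the 19 members found in exactly 1 equal-length list, 9 (47.4%) were in a Case, 8 (42.1%) in a Dapa and 2 (10.5%) in a Ctrl mouse, and of the 1593 protein-coding genes found in exactly 1 the shares were 43.9%, 36.8% and 19.3%. In the complete lists 11, 14 and 14 of 39 such members were in Case, Dapa and Ctrl mice (28.2%, 35.9% and 35.9%), against 30.8%, 39.6% and 29.6% of 1304 genes. Nothing particular to the family is read from these shares.

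Members were grouped into 16 genomic clusters by joining windows within 500 kb. The largest cluster, 65 genes from Vmn1r91 to Vmn1r183 over 3.96 Mb of chromosome 7, had 12 members with a summit in an equal-length list and 24 in a complete list. Its count per mouse was 0, 0, 0, 1 and 2 in Ctrl, 0 to 5 in Case (mean 2.17) and 0 to 3 in Dapa (mean 1.17). In the complete lists the means were 3.60, 3.17 and 2.67. The cluster of 13 genes from Vmn1r72 to Vmn1r84, which holds Vmn1r77 and Vmn1r79, had 0, 0, 0, 0 and 1 in Ctrl, 1 to 2 in Case and 0 to 2 in Dapa, and in the complete lists means of 1.20, 2.50 and 2. The chromosome 13 cluster of 36 genes had 6 members with a summit in an equal-length list and 19 in a complete list, with means of 0.20 in Ctrl, 0.50 in Case and 0.667 in Dapa in the equal-length lists and of 2.40, 0.667 and 2.50 in the complete lists, so that the order of Ctrl and Case differed between the lists. The chromosome 6 cluster of 28 genes that begins with Vmn1r4 had no other member with a summit in an equal-length list, and the 8 genes from Vmn1r32 to Vmn1r39 had none in any list.

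Apart from Vmn1r4, member summits ranked in the middle or low part of each list. Without Vmn1r4, the median percentile of a mouse's member summits averaged 17.7 ± 9.27 over Ctrl mice, 31.9 ± 10.5 over Case mice and 19.7 ± 5.34 over Dapa mice, and the groups overlapped. The highest member percentile outside Vmn1r4 ranged from 41 to 57.2 in Ctrl, from 58.1 to 71.8 in Case and from 44.7 to 60.3 in Dapa, so that Ctrl and Case did not overlap by this measure while Dapa overlapped both. This rests on leaving out the whole of Vmn1r4, since its summits inside the gene reached 73.06 in Ctrl 3 and 70.13 in Ctrl 2, and with them Ctrl and Case overlapped. A percentile also depends on the length of the list. By rank, these summits stood at 19380 to 27574 in Ctrl, 10039 to 16789 in Case and 17320 to 26904 in Dapa. Dapa thus overlapped Ctrl but not Case by rank. The highest member percentile outside Vmn1r4 came from different genes, Vmn1r236, Vmn1r193, Vmn1r3, Vmn1r139 and Vmn1r77 in Ctrl 1 to 5 and Vmn1r79 in 4 of the 12 db/db mice. Some members fell close to the end of the equal-length list, where a small change in score changes their count. Vmn1r139 in Dapa 8 ranked 29695 and was kept, and Vmn1r88 in the same mouse ranked 30052 and was not.

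**Figure D5:**
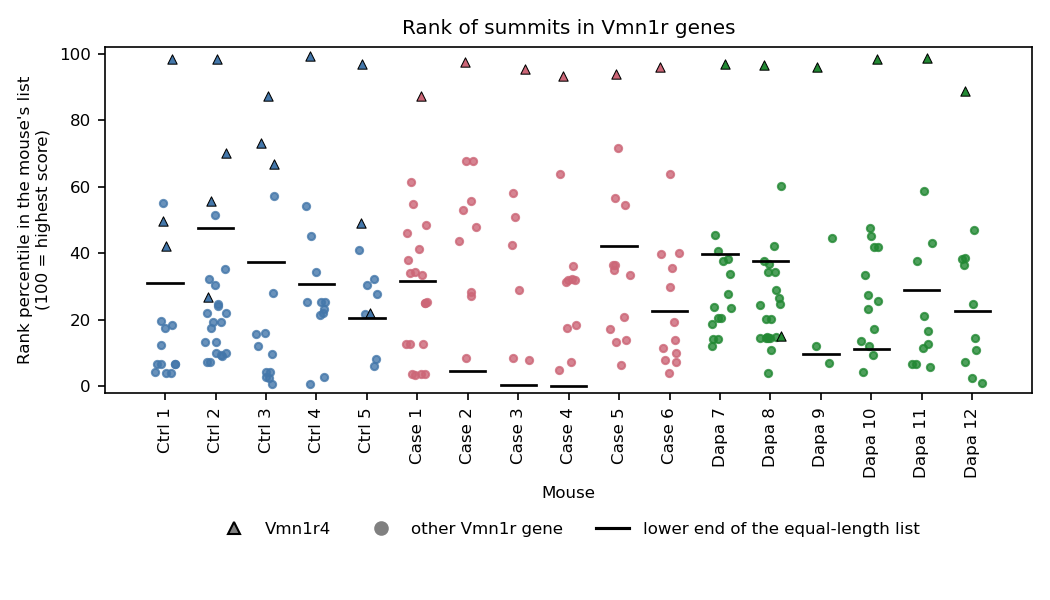
Each point is a summit in a Vmn1r gene and the vertical axis is its rank percentile in that mouse's complete list, with triangles for Vmn1r4. The black line marks where the equal-length list ends, and Vmn1r4 has a triangle between 87.14 and 99.28 in every mouse while the points of other members lie at 71.8 or below.

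When the summits of all mice were extended by 250 bp and merged, the members held 133 regions, of which 100 (75.2%) were found in 1 mouse and 7 in 5 or more. Of all 201017 merged regions 60.3% were found in 1 mouse. By GENCODE, 44 member regions (33.1%) lay in introns, 43 (32.3%) in untranslated parts of exons, 24 (18.0%) in coding exons and 22 (16.5%) upstream. At their highest summit, the 201 bases were 50% or more soft-masked as repeat in 47.4% of member regions, against 19.3% of 680 summits taken evenly by rank from the 17 lists and 25.6% of the 340 from the lower part of each list. At least 1 other copy of 95% identity or more was found for 54.9% of member regions, against 18.1% and 23.5% of these summits. The median GC content was 46.3% in member regions and 53.2% and 51.7% in these summits. These shares are descriptions over regions that share libraries and duplicated sequence. The 2 sides are unlike units. Each member region counts once, whereas the 680 are single summits, among which a region found in many mice weighs more. Among the 33 member regions found in at least 2 mice, 42.4% were 50% or more soft-masked and 57.6% had another copy. Regions of other receptor families were not taken as background.

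Genes that work with the receptors were examined as a list of 20 (signalling, transport and development of vomeronasal neurons). In the equal-length lists a start had a summit within 1 kb for 5 to 7 of the 20 per Ctrl mouse, 4 to 7 per Case mouse and 3 to 7 per Dapa mouse. Gnai2, the G protein subunit named above, and Ldb1, a transcriptional cofactor, had one in all 17 mice, and both are widely expressed genes. Emx2, a homeobox gene that also acts in kidney development, had one in 16 mice, Gnb1, a widely used G protein beta subunit, in 14, and Gng8, a G protein gamma subunit of these neurons, in 10 (3 Ctrl, 2 Case and 5 Dapa). The channel gene Trpc2 and Omp, the marker of mature olfactory and vomeronasal neurons, had none in any mouse. Over the whole window and the complete lists, Trpc2 had a summit in 3 mice (2 Ctrl and 1 Dapa) and Omp in none.

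For the other comparisons the whole table of genes gave the following background. Between Dapa and Case in the equal-length lists, 13 of 1494 testable genes (0.870%) had an unadjusted p under 0.05 in the direction higher in Dapa and 6 (0.402%) in the direction lower, with none of the 2 members seen in enough mice among them. Between Dapa and Ctrl the counts were 26 of 1862 (1.40%) higher and 93 (4.99%) lower, with the 1 member seen in enough mice in neither. In the complete lists 12 of 2166 genes (0.554%) had such a p in the direction higher in Dapa, with Vmn1r79 counted among them by its presence, of 4 members seen in enough mice, and 88 (4.06%) had one in the direction lower, with no member among them. No gene passed the adjustment in either comparison by Fisher's exact test, the only test run, with smallest adjusted p values of 1 and 0.212 in the equal-length lists and 1 and 0.328 in the complete lists. Both comparisons share mice with the Case against Ctrl comparison. Vmn1r79 differed by 3 of 6 against 6 of 6 mice between Dapa and Case in the equal-length lists and by 5 of 6 against 6 of 6 in the complete lists.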

How the data were processed

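Kidney ATAC-seq summits of 17 mice were analysed. According to the study's methods and the submitters' processing notes, the authors aligned reads to mm10 with Bowtie2, removed duplicates and blacklisted regions, shifted reads for the transposase offset and called peaks with MACS2 in each library (versions not given in the sources used here). The deposited files list summits with a −log10 score; whether it comes from p or q is not given. No read counts were used, so depth and its error are unknown.

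Gene windows came from GENCODE. Summits were ranked by score within a list. Presence was compared across all protein-coding genes by Fisher's exact test (2-sided; scipy 1.17.1) with Benjamini-Hochberg adjustment over genes whose number of mice allows an unadjusted p under 0.05. Counting and testing were tested on simulated data. Copies were found with BLAST+ (at least 95% identity over at least 90% of the 201 bases around a summit), and summits at most 150 bases outside a copy were counted with it. Members and lists were chosen with earlier results of these data known. Named members were Vmn1r79, those with a summit in at least 5 equal-length or 9 complete lists, and those whose share of mice in the equal-length lists differed by at least 0.5 in any comparison (Vmn1r4, Vmn1r77, Vmn1r79 and Vmn1r139); other members were named after their values were seen. Alternatives are given in the closing section.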

Additional observations from a re-analysis of the deposited data

Results flagged for a closer look

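Per-mouse values were examined for a mouse far from the rest of its group by Dixon's criterion, in 45 sets of values, and 9 values were marked. For continuous values chance marks about 1 set in 20. Several sets here are small counts with ties, for which that rate need not hold. Ctrl 5 stood apart from the other Ctrl mice in the equal-length lists, with 5 members with a summit, 4 members other than Vmn1r4 and Vmn1r79, and 8 distinct member summits. Dapa 10 stood apart from the other Dapa mice, with 12 members, 11 members other than Vmn1r4 and Vmn1r79, and 12 distinct member summits. These 3 measures share the same summits. The percentile of the Vmn1r4 upstream summit stood apart at the low end in Ctrl 3 (87.14) and in Dapa 12 (88.80). Ctrl 2, whose list was the longest, had a summit in 6.61% of Olfr genes in its complete list, above the other Ctrl mice. Without Ctrl 5 the Ctrl mean was 2 members in the equal-length lists, and without Dapa 10 the Dapa mean was 4.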

How the results depend on the processing

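The Case minus Ctrl difference in members with a summit per mouse (4.73) fell to 1.50 in the 14851 highest summits, 1 at a score of at least 5, 2.13 over gene bodies, 2.23 within 1 kb of a start and 1.37 in the upper 50% of each list (added after seeing the data), rose to 12.1 with 10 kb upstream, and turned to -0.367 in complete lists. Dapa minus Case (-2) was 0.667 in complete lists, -0.333 at a score of at least 5, -0.500 over gene bodies, -1.83 to -1.50 in 4 other settings, -2.67 for distinct summits and -6.50 with 10 kb upstream. Dapa minus Ctrl (2.73) was 0 in the 14851 highest summits, -0.467 in the upper 50%, 0.30 in complete lists, 0.533 for distinct summits, 0.667 at a score of at least 5, 0.733 within 1 kb, 1.63 over gene bodies and 5.60 with 10 kb upstream. Members found in any mouse (34) numbered 77 in complete lists, 7 in the 14851 highest summits, 15 at a score of at least 5, 17 within 1 kb of a start, 97 with 10 kb upstream and 12 in the upper 50%. Leaving out each mouse in turn gave 4.20 to 5.40, -3.33 to -1.47, 1.40 to 3.33 and 30 to 34, in that order; -3.33 and 1.40 were without Dapa 10. With a replicate block, Case minus Ctrl was 5; same-numbered mice are different animals, and their deviations correlated at -0.0450 to 0.0297.

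Genes with an unadjusted Fisher p under 0.05 depended on the setting. Higher in Case than Ctrl (19) they were 10 in complete lists, 5 within 1 kb of a start and 29 to 60 without any 1 mouse, most without Case 5; lower (150), 172 to 236, again most without Case 5. Higher in Dapa than Case (13) they were 8 in complete lists and 16 to 38 without 1 mouse; lower (6), 3 in complete lists, 3 within 1 kb and 8 to 18. Higher in Dapa than Ctrl (26) they were 12, 10 and 41 to 47; lower (93), 117 to 164. The exact p takes few values with so few mice, and the cause was not tested. Depth is unknown, so an absent summit does not show closed DNA.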
